A study of Mus musculus with 6 samples.

Results

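The dual-specificity MAP kinase phosphatases were followed as 10 genes, Dusp1, Dusp2, Dusp4, Dusp5, Dusp6, Dusp7, Dusp8, Dusp10, Dusp14 and Dusp16, found by their symbols among the 32285 genes of a single-nucleus RNA sequencing study of the mouse hippocampus. Mice of the sevoflurane group (3 libraries) inhaled the anaesthetic gas sevoflurane at 2% for 6 h, carried in 60% oxygen flowing at 1 L/min. Mice of the oxygen group (3 libraries) inhaled 60% oxygen without the anaesthetic, with the exposure time and flow unchanged. All mice were labelled 18 to 20 months old, and replicates 1 and 2 of each group were labelled male and replicate 3 female. No strain, genotype or number of mice per library is given in the sources used here, so p-values measure only the spread between these libraries, which may be technical.

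MAP kinases (ERK, JNK and p38) are switched on when a threonine and a tyrosine in their activation loop are phosphorylated, and these phosphatases switch them off by removing both phosphates. Dusp1, Dusp2, Dusp4 and Dusp5 encode nuclear enzymes whose transcription is itself induced by MAP kinase signals, which gives a negative feedback loop. Dusp6 and Dusp7 encode cytoplasmic enzymes selective for ERK, Dusp8, Dusp10 and Dusp16 encode enzymes selective for JNK and p38, and Dusp14 encodes a small atypical enzyme that lacks the MAP kinase-binding domain. In the brain, Dusp1, Dusp5 and Dusp6 are known as genes that respond to neuronal activity. The comparison here asks in which cell types the transcripts of these brakes differed after the anaesthetic.

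After filtering, 52052 nuclei remained, 7759 to 9749 per library. The deposited libraries held 56334621 to 72636984 unique molecular identifiers (UMIs) each. Clusters were named from marker genes, written X-like, and 13 classes with at least 20 nuclei in every library were tested. Sevoflurane replicate 1, labelled male, had 1363 CPM (counts scaled to 1000000 per library) of Xist, and the other 5 libraries had at most 1.21 CPM. The summed Y-linked genes were at 0.363 CPM in sevoflurane replicate 1 and at 341 to 373 CPM in the other 5 libraries, which include both replicates labelled female. The labelled sex thus did not match in 3 of 6 libraries, and values without sevoflurane replicate 1 are given where a result rests on it. Choroid plexus-like nuclei were 0 in each sevoflurane library and 61, 16 and 98 in the oxygen libraries. Pairs of libraries shared 15 to 33 barcode sequences.

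The stretches before the transcription start are shown for the 3 genes that rose in a class, Dusp1, Dusp16 and Dusp10, and for Dusp8, whose difference in endothelial-like nuclei came closest to the threshold among the other JNK- and p38-selective genes. Each is the 250 bases before the RefSeq start on build GRCm38.p6, read 5′ to 3′ on the strand of the gene. Capitals mark TGACG on either strand, the half-site of the cAMP response element TGACGTCA, to which CREB-family factors bind. Dusp1 lies at chr17:26508473-26508722 (minus strand), Dusp16 at chr6:134792629-134792878 (minus strand), Dusp8 at chr7:142095285-142095534 (minus strand) and Dusp10 at chr1:184034131-184034380 (plus strand).
Dusp1: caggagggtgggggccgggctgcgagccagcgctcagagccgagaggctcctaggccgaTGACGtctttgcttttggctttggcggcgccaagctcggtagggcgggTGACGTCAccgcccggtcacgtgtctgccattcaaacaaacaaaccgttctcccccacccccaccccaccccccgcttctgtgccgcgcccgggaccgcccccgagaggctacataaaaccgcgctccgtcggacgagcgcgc
Dusp16: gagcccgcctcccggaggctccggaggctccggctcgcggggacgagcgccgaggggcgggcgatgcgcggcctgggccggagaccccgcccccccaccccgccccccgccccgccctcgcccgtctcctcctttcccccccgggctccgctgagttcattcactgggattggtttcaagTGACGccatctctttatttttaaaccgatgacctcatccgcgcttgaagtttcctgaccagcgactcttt
Dusp8: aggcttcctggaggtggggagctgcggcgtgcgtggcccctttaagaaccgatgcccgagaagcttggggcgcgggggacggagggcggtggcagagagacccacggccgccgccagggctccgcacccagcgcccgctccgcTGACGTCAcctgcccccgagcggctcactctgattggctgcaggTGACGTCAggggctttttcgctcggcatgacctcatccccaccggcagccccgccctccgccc
Dusp10: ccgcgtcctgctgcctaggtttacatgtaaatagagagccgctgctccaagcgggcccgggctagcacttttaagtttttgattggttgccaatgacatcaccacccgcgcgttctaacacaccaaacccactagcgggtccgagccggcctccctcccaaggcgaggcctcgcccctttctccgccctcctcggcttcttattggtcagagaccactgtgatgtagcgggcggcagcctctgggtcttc
The full element TGACGTCA, which is its own reverse complement, was found in 2 of the 9 members with a promoter in the table, once in Dusp1 and 2 times in Dusp8, against 1.55% of the 32851 promoters searched over the same length. The half-site TGACG, which the full element contains, was found in 4 of the 9 (Dusp1, Dusp5, Dusp8 and Dusp16), against 17.8% of all promoters. The CArG box bound by serum response factor was found in Dusp5, with 1.47% of all promoters holding it. The AP-1 element TGANTCA (6.75% of all promoters), the NR4A element AAAGGTCA (1.34%) and the glucocorticoid response element (0.387%) were found in none of the 9 windows. A match describes letters in these windows and not bound sites. The member without an entry is Dusp4.

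The genes differed in the classes that held their transcripts, and these levels are given as CPM within each gene, since they were not scaled to transcript length. Among the nuclear enzymes, Dusp1, which acts on p38, JNK and ERK, was highest in endothelial-like nuclei in both groups, with a mean of 118 ± 19.0 CPM in sevoflurane and 61.6 ± 5.94 CPM in oxygen libraries (SD, n = 3 each). Ependymal-like nuclei came second. In the oxygen libraries, the ranges of these 2 classes did not overlap (57.9 to 68.5 against 16.3 to 23.2 CPM), and in the sevoflurane libraries they did (104 to 140 against 51.6 to 177 CPM). Group means in the other 11 classes were at most 15 CPM in sevoflurane and 8.47 CPM in oxygen libraries.

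Dusp2, known from activated immune cells, was near 0 in the resident cell types measured here. It was listed with 0 counts in all 6 libraries in microglia-like, oligodendrocyte precursor-like and ependymal-like nuclei. In microglia-like nuclei a count of 0 allows up to 1.63 CPM over the sevoflurane and 1.99 CPM over the oxygen libraries, which covers counting error only. Dusp4, which acts on ERK and JNK, had its highest means in CA2 pyramidal-like nuclei (14.9 ± 5.68 CPM in sevoflurane and 10.6 ± 5.97 CPM in oxygen libraries) and dentate granule-like nuclei (10.1 ± 0.719 and 9.41 ± 2.03 CPM in sevoflurane and oxygen libraries). The ranges of these 2 classes overlapped in both groups. Dusp5, selective for ERK, was highest in CA2 pyramidal-like nuclei, with 35.5, 45.5 and 32.4 CPM in sevoflurane and 39.5, 31.1 and 38.2 CPM in oxygen libraries. No library overlapped with the next classes, CA1 pyramidal-like and subicular or cortical excitatory-like nuclei, which had at most 14.8 CPM in sevoflurane and 9.21 CPM in oxygen libraries.

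The cytoplasmic ERK-selective genes were highest in glial and vascular classes. Dusp6 had 58.7, 36.1 and 42.8 CPM in sevoflurane and 32.1, 53.1 and 72.5 CPM in oxygen libraries of microglia-like nuclei. In endothelial-like nuclei it had 97.0, 47.8 and 23.6 CPM in sevoflurane and 38.6, 58.4 and 28.5 CPM in oxygen libraries. The ranges of these 2 classes overlapped, and their means were at least 41.9 CPM, with every other class at a mean of at most 18.1 CPM in either group. Dusp7 was highest in endothelial-like nuclei, at 59.4 ± 10.9 CPM in sevoflurane and 77.2 ± 15 CPM in oxygen libraries.

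Of the JNK- and p38-selective genes, Dusp8 had oxygen means between 16.1 CPM in CA3 pyramidal-like and 33.8 CPM in endothelial-like nuclei. Dusp10 had its transcripts mainly in 4 of the 13 classes. It averaged 70.1 ± 9.63 CPM in sevoflurane and 87.1 ± 11.6 CPM in oxygen libraries of oligodendrocyte-like nuclei, and 25.5 ± 1.74 and 27.0 ± 4.15 CPM in sevoflurane and oxygen libraries of inhibitory-like nuclei. Newly formed oligodendrocyte-like and ependymal-like nuclei were the other classes above 25 CPM, while the 5 excitatory classes were at or under 1.24 CPM in both groups. Dusp16 was highest in oligodendrocyte-like, newly formed oligodendrocyte-like, ependymal-like, endothelial-like and microglia-like nuclei, with group means of 74.0 to 148 CPM and ranges that mostly overlapped. The atypical Dusp14 was highest in ependymal-like nuclei (38.3 ± 12.2 CPM in sevoflurane, 29.4 ± 3.51 CPM in oxygen libraries), followed by dentate granule-like nuclei (24.2 ± 2.39 CPM in sevoflurane, 22.8 ± 2.29 CPM in oxygen libraries).

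**Figure D1:**
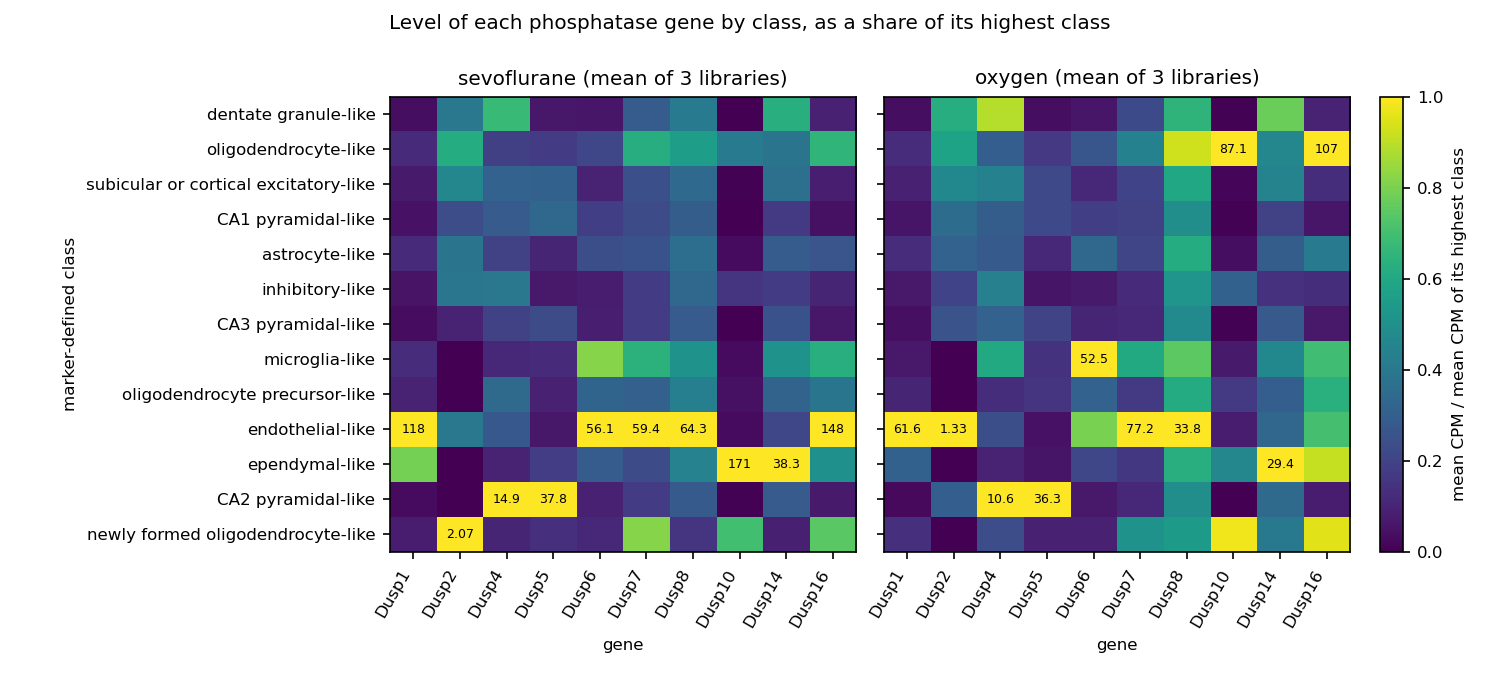
Mean CPM of each phosphatase gene (columns) in each marker-defined class (rows), divided by the mean of its highest class, for sevoflurane libraries on the left and oxygen libraries on the right; the number printed is the CPM of the highest class. Dusp1, Dusp7 and Dusp8 peaked in endothelial-like nuclei in both groups, and the peak of Dusp10 lay at 171 CPM in ependymal-like nuclei in sevoflurane and at 87.1 CPM in oligodendrocyte-like nuclei in oxygen libraries.

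Genes with the most similar profile over the 13 classes in the oxygen libraries were listed by Pearson's r of mean log2 CPM, as a description over classes that share the same libraries. For Dusp1 these were Cav2 (r = 0.967), Cd151 (0.964) and Rbms2 (0.960). For Dusp16 they were Gab1 (0.990), Cd9 (0.979) and Tfam (0.972), and for Dusp10 Piezo2 (0.956), Creb5 (0.949) and Itgad (0.939). Dusp5 was most like Nptx2 (0.855), Mirt1 (0.847) and Slc9a3 (0.830). Dusp6 was most like Arl6ip4 (0.969), Fuca1 (0.955) and Ldha (0.941), Dusp7 most like Chmp3 (0.956), Ccdc12 (0.953) and Zfp180 (0.946), and Dusp8 most like Sh3bgrl3 (0.949), Stoml2 (0.947) and Psma7 (0.943). Dusp4 was most like Ntf3 (0.833), Cacng5 (0.823) and Myadml2os (0.819), and Dusp14 most like Emx1 (0.891), Spint2 (0.876) and Ccdc33 (0.862). For Dusp2, with few counts, they were Kncn (0.993), Hist4h4 (0.987) and Upk3a (0.987).

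After sevoflurane, Dusp1 and Dusp16 rose in endothelial-like nuclei and Dusp10 rose in ependymal-like nuclei. Of the 130 combinations of a member and a class, 80 passed the filter on low counts. Of these, 3 were called higher and 0 lower at an adjusted p under 0.05 (edgeR quasi-likelihood test, Benjamini-Hochberg adjustment within each class). Over all genes and the same classes, 0.536% of combinations were called higher and 1.74% in either direction. With DESeq2, 2 combinations were called higher and 0 lower. At an unadjusted p under 0.05 there were 17 combinations, 16 of them higher, where 13.8% of all gene-class combinations passed. The log2 difference was above 0 in 60 of the 80 combinations, where 52.2% of all combinations were. In 17 combinations every sevoflurane library lay above every oxygen library, where 9.00% of all combinations did, and in 2 every sevoflurane library lay below, where 10.1% did. The classes come from the same 6 libraries and are not independent of one another. The members were chosen with earlier results of these data known, so these counts are not independent of that choice. In counts summed over nuclei, fewer nuclei with the transcript and less RNA per nucleus cannot be told apart.

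In endothelial-like nuclei, 5 of the 10 members passed the filter and 2 were called higher, where 1.55% of the 8730 genes tested were called higher. Dusp1 had 140, 111 and 104 CPM in sevoflurane and 57.9, 58.4 and 68.5 CPM in oxygen libraries. Each sevoflurane library stood above each oxygen library, and the log2 fold change was 0.91 (SE 0.21, adjusted p = 0.0203, edgeR). Dusp16 had 187, 144 and 114 CPM in sevoflurane and 85.5, 60.5 and 79.9 CPM in oxygen libraries. These groups did not overlap either, with sevoflurane replicate 1 the highest, and the log2 fold change was 0.90 (SE 0.22, adjusted p = 0.0257, edgeR). Dusp8 had 71.8, 65.1 and 55.9 CPM in sevoflurane and 41.4, 33.4 and 26.6 CPM in oxygen libraries. The libraries of the groups did not overlap, and the difference missed the threshold (log2 0.86, SE 0.26, adjusted p = 0.0900, edgeR). The ERK-selective Dusp6 and Dusp7 overlapped between the groups, with a log2 difference of -0.42 (SE 0.23, adjusted p = 0.479, edgeR) for Dusp7.

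The 2 endothelial-like calls were close to the threshold. With DESeq2 the adjusted p was 0.0677 for Dusp1 and 0.0525 for Dusp16. The stricter filter of at most 1% mitochondrial UMIs left 15, 43 and 60 nuclei in the sevoflurane and 40, 46 and 52 in the oxygen libraries, against 61, 138 and 189 in sevoflurane and 169, 94 and 117 in oxygen libraries before it, and neither gene was called (Dusp1 log2 0.64, adjusted p = 0.807; Dusp16 log2 0.56, adjusted p = 0.808, edgeR). Without sevoflurane replicate 1 the edgeR adjusted p was 0.0606 for Dusp1 and 0.0862 for Dusp16. Dusp1 also lost its call without sevoflurane replicate 2 (0.0606) and without oxygen replicate 1 (0.109). Dusp16 kept its call only when sevoflurane replicate 3 was left out (0.0146), and its adjusted p was between 0.0636 and 0.0862 with each of the other 5 libraries left out. The fold changes stayed positive in each of these fits.

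All 11 endothelial markers were found in this class, summing to 12484, 11210 and 11819 CPM in sevoflurane and 12973, 14270 and 12426 CPM in oxygen libraries. All 8 pericyte markers were found too, at 4290, 4590 and 4357 CPM in sevoflurane and 4322, 6249 and 4403 CPM in oxygen libraries. The summed choroid plexus markers stood at 33.4, 20.0 and 22.5 CPM in sevoflurane and 296, 102 and 699 CPM in oxygen libraries, with 3 of the 10 at 0 in sevoflurane (Clic6, Otx2 and Slc4a5) and 1 at 0 in oxygen (Slc4a5). The 6 Cajal-Retzius markers summed to 46.8, 67.2 and 89.9 CPM in sevoflurane and 192, 164 and 196 CPM in oxygen libraries, with Lhx1 and Lhx5 at 0 in both groups. The 8 vascular leptomeningeal fibroblast markers summed to 56.8, 111 and 91.0 CPM in sevoflurane and 123, 228 and 169 CPM in oxygen libraries, with Slc47a1 at 0 in both groups. Newly formed oligodendrocyte markers (257 to 289 CPM in sevoflurane and 322 to 352 CPM in oxygen libraries) were lower, and CA1 (199 to 224 CPM in sevoflurane and 178 to 193 CPM in oxygen libraries) and CA2 markers (108 to 160 CPM in sevoflurane and 77.0 to 84.1 CPM in oxygen libraries) were higher, without overlap. These sums are descriptions with no test. The median mitochondrial share was 1.41%, 1.41% and 1.48% in sevoflurane and 1.81%, 1.00% and 1.09% in oxygen libraries. Their part in the 2 calls was not tested.

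In ependymal-like nuclei, the ciliated cells that line the ventricles, 4 of the 10 members passed the filter and 1 was called higher, where 0.330% of the 7572 genes tested were called higher. Dusp10 had 217, 104 and 192 CPM in sevoflurane and 32.6, 63.8 and 24.1 CPM in oxygen libraries. The lowest sevoflurane library stood above the highest oxygen library, and the log2 fold change was 2.05 (SE 0.35, adjusted p = 0.0151, edgeR). It remained called with DESeq2 (adjusted p = 0.000491), under the stricter nuclei filter (log2 2.93, adjusted p = 0.0228, edgeR) and without sevoflurane replicate 1 (log2 1.82, adjusted p = 0.0161, edgeR). The stricter filter left 37, 54 and 18 nuclei in the sevoflurane and 36, 31 and 24 in the oxygen libraries, with 3556 genes tested. Sevoflurane replicate 3 thus fell below the minimum of 20 nuclei set for testing a class. Dusp10 lost its call without oxygen replicate 1 (log2 1.91, adjusted p = 0.0847, edgeR).

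Dusp1 in ependymal-like nuclei had 177, 52.1 and 51.6 CPM in sevoflurane and 16.3, 23.2 and 18.1 CPM in oxygen libraries. The groups did not overlap, and sevoflurane replicate 1 stood far above the other libraries of its group. Dusp1 passed the low-count filter here through its sevoflurane libraries, as the oxygen libraries lay below the cutoff. The log2 difference of 2.23 (SE 0.59) was not called in the edgeR fit (adjusted p = 0.177) and was called with DESeq2 (adjusted p = 0.0170). Without sevoflurane replicate 1 the log2 difference was 1.40 (SE 0.41, adjusted p = 0.130, edgeR). Dusp16 overlapped between the groups, with 60.7, 72.6 and 88.8 CPM in sevoflurane and 94.6, 110 and 87.2 CPM in oxygen libraries (log2 -0.40, SE 0.25, adjusted p = 0.601, edgeR). The class held all 10 ependymal markers, at 10666, 8441 and 8561 CPM in sevoflurane and 8204, 8622 and 7859 CPM in oxygen libraries. Choroid plexus markers stood at 211, 167 and 207 CPM in sevoflurane and 384, 298 and 958 CPM in oxygen libraries, with 1 of 10 at 0 in each group, and dentate granule markers at 1320, 1179 and 1252 CPM in sevoflurane and 1420, 1625 and 1471 CPM in oxygen libraries. CA1 markers stood at 276, 303 and 288 CPM in sevoflurane and 393, 358 and 383 CPM in oxygen libraries. The median mitochondrial share was 1.42%, 1.44% and 1.63% in sevoflurane and 1.16%, 1.47% and 1.39% in oxygen libraries. The part of these in the Dusp10 result was not tested.

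**Figure D2:**
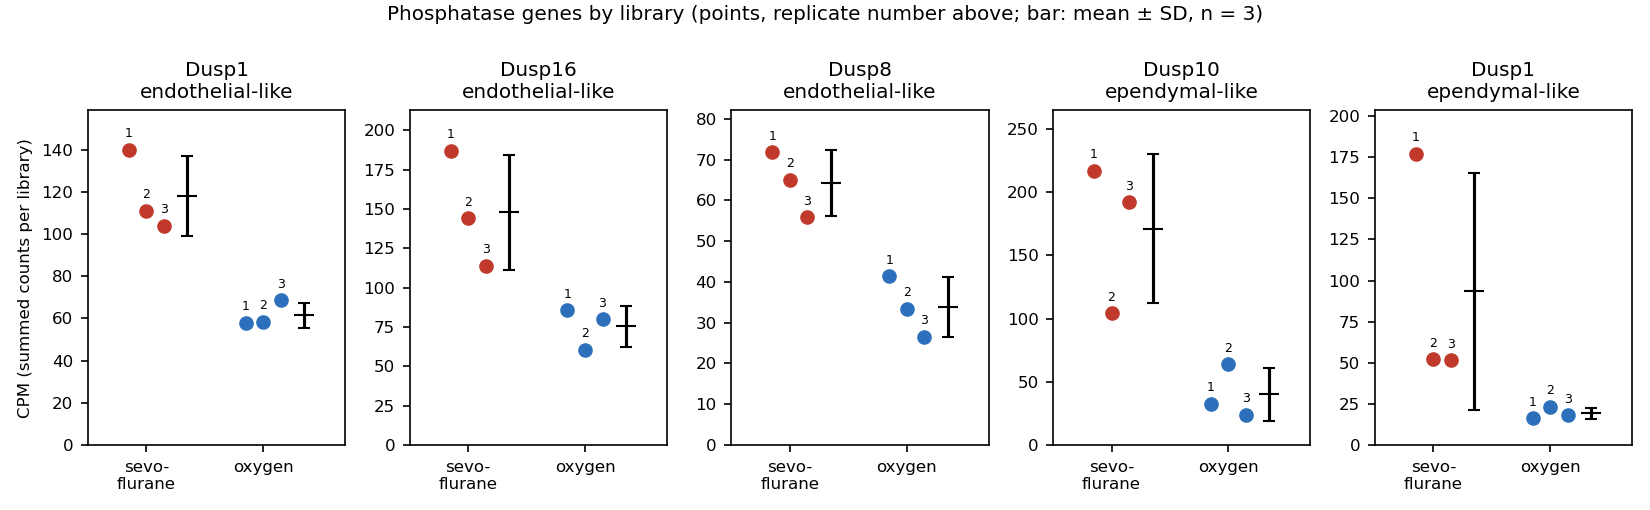
CPM of Dusp1, Dusp16 and Dusp8 in endothelial-like and of Dusp10 and Dusp1 in ependymal-like nuclei, for each sevoflurane (left, red) and oxygen (right, blue) library, with replicate numbers above the points and the mean ± SD beside them (n = 3 each). In each panel the lowest sevoflurane library lies above the highest oxygen library, and Dusp1 in ependymal-like nuclei rests on 177 CPM in sevoflurane replicate 1 beside 52.1 and 51.6 CPM in the other two.

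The shares of nuclei with at least 1 UMI of a gene were compared after each nucleus was thinned to 2000 UMIs, which leaves out shallower nuclei. For Dusp10 in ependymal-like nuclei the share was 23.8%, 19.3% and 23.1% in sevoflurane and 4.87%, 10.9% and 3.93% in oxygen libraries, a difference of 15.5 percentage points. The two-sided exact permutation p was 0.10, the smallest that 3 against 3 libraries can give. Unthinned, the shares were 37.1%, 26.4% and 41.6% in sevoflurane and 9.76%, 19.1% and 11.3% in oxygen libraries. Thinning left out 7, 20 and 4 nuclei of the sevoflurane and 6, 6 and 5 of the oxygen libraries. In CA1 pyramidal-like nuclei, where the gene was nearly absent, the thinned shares were 0.153%, 0.0908% and 0.0409% in sevoflurane and 0.167%, 0.145% and 0.0210% in oxygen libraries. Median depths were 3076 to 3812 UMIs per library in ependymal-like and 8617 to 12105 UMIs in CA1 pyramidal-like nuclei.

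In endothelial-like nuclei the thinned share with Dusp1 was 24.2%, 14% and 17.3% in sevoflurane and 10.4%, 10.9% and 10.2% in oxygen libraries (exact permutation p = 0.10). For Dusp16 it was 26.5%, 21.4% and 18.8% in sevoflurane and 14.6%, 11% and 14% in oxygen libraries (exact permutation p = 0.10). Thinning left out 8, 34 and 56 nuclei in the sevoflurane and 33, 14 and 42 in the oxygen libraries. Unthinned, Dusp1 shares were 36.1%, 23.9% and 28.0% in sevoflurane and 18.9%, 24.5% and 20.5% in oxygen libraries, and these overlapped (exact permutation p = 0.20). In CA3 pyramidal-like nuclei, with little Dusp1, the thinned share was 0.625% to 1.36% in sevoflurane and 0.374% to 0.660% in oxygen libraries. For Dusp16 it was 1.33% to 1.61% in sevoflurane and 0.933% to 1.63% in oxygen libraries of CA1 pyramidal-like nuclei. Median depths were 2632 to 4154 UMIs in endothelial-like and 12737 to 16534 UMIs in CA3 pyramidal-like nuclei.

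Across the classes, the log2 difference of Dusp1 was above 0 in each of the 9 classes where it passed the filter. It lay between 0.55 in inhibitory-like and 2.23 in ependymal-like nuclei, with 1 class called. In ependymal-like nuclei Dusp1 passed the filter through its sevoflurane libraries, as its oxygen libraries (16.3 to 23.2 CPM) lay below the cutoff. Its sign in that class was thus partly set by the filter. In 5 of the 9 classes every sevoflurane library lay above every oxygen library, where 9.00% of all gene-class combinations were ordered this way. In dentate granule-like nuclei Dusp1 had 4.86, 4.82 and 3.1 CPM in sevoflurane and 1.99, 2.06 and 2.57 CPM in oxygen libraries. The groups did not overlap, and the log2 difference was 0.95 (SE 0.25, adjusted p = 0.0557, edgeR). This class joins cluster 1, with 852, 469 and 1059 nuclei in sevoflurane and 789, 1795 and 1130 in oxygen libraries, with cluster 4, with 1245, 1368 and 545 in sevoflurane and 235, 136 and 173 in oxygen libraries, and a small cluster. Within them, the log2 difference was 0.69 (SE 0.27, adjusted p = 0.201) in cluster 1 and 1.07 (SE 0.59, adjusted p = 0.584) in cluster 4 (edgeR).

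In CA1 pyramidal-like nuclei Dusp1 had 6.36, 5.69 and 4.81 CPM in sevoflurane and 2.65, 3.24 and 4.36 CPM in oxygen libraries, and in astrocyte-like nuclei 19.2, 10.9 and 12.4 CPM in sevoflurane and 7.52, 6.69 and 9.51 CPM in oxygen libraries. Neither overlapped between the groups and neither was called (adjusted p = 0.146 and 0.193, edgeR). In microglia-like nuclei, where the gene missed the filter and was not tested, Dusp1 had 18.5, 14.4 and 12 CPM in sevoflurane and 8.55, 1.71 and 2.68 CPM in oxygen libraries. Every sevoflurane library was above every oxygen library, at few counts. Over all nuclei Dusp1 had 9.98, 8.45 and 6.82 CPM in sevoflurane and 5.0, 4.13 and 6.05 CPM in oxygen libraries. The groups did not overlap, the edgeR fit did not call it (log2 0.74, SE 0.18, adjusted p = 0.0881), and DESeq2 did (log2 0.73, adjusted p = 0.00580). No member was called over all nuclei in edgeR, where 2.07% of 20797 genes were called in either direction, and 3 members (Dusp1, Dusp5 and Dusp14) had an unadjusted p under 0.05, where 18.8% of genes did.

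**Figure D3:**
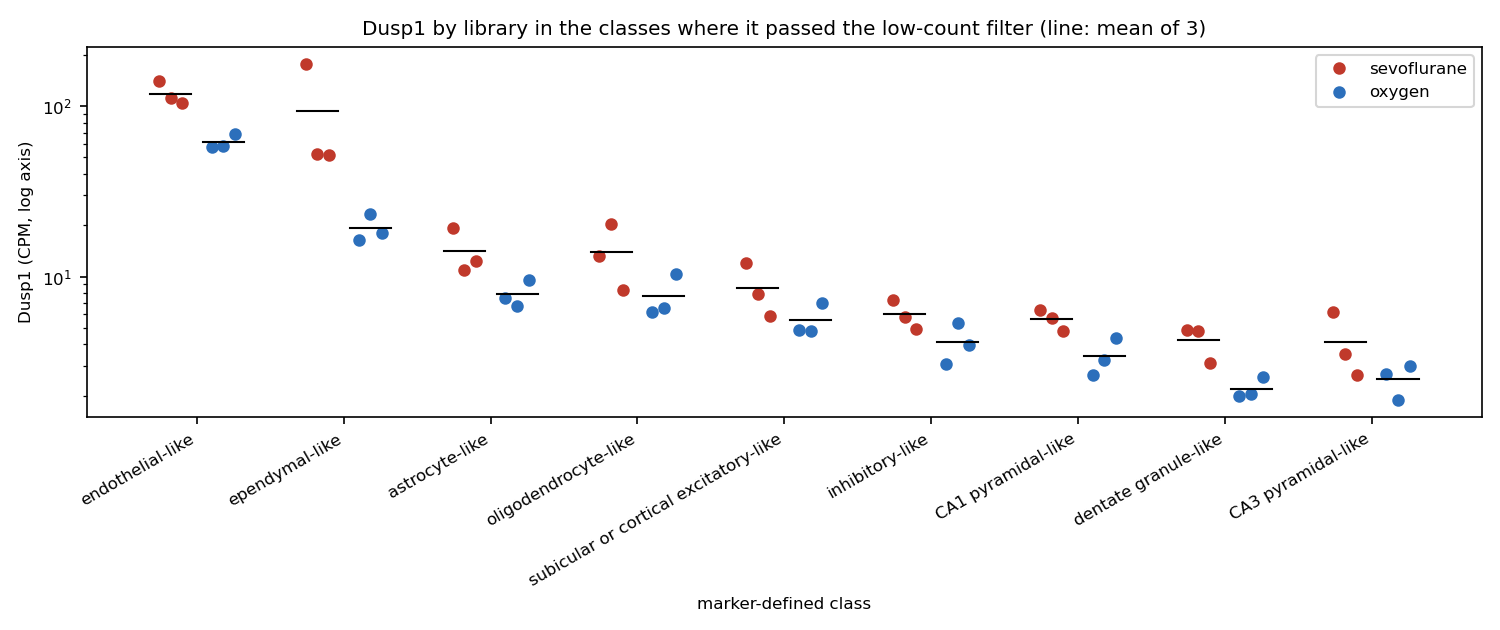
Dusp1 in CPM (log axis) for each sevoflurane (red, left) and oxygen (blue, right) library in the 9 classes where it passed the low-count filter, with black lines at the means of 3 libraries. The sevoflurane mean lies above the oxygen mean in each class shown, from 118 against 61.6 CPM in endothelial-like to 4.12 against 2.53 CPM in CA3 pyramidal-like nuclei. In ependymal-like nuclei the filter was passed through the sevoflurane libraries only.

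The other members did not pass the test in any class. The ERK-selective Dusp5 had a log2 difference of 0.67 (SE 0.21, adjusted p = 0.137) in CA1 pyramidal-like nuclei, with 14.8, 14.4 and 8.88 CPM in sevoflurane and 9.21, 8.28 and 6.60 CPM in oxygen libraries (edgeR). Sevoflurane replicate 3 overlapped with the oxygen libraries, and without it the difference was called (log2 0.87, adjusted p = 0.0343, edgeR). In CA2 pyramidal-like nuclei, where Dusp5 was highest, the groups overlapped. In dentate granule-like nuclei Dusp5 had 2.40, 3.08 and 1.86 CPM in sevoflurane and 1.19, 1.80 and 1.19 CPM in oxygen libraries, groups that did not overlap (adjusted p = 0.183, edgeR). Dusp10 in oligodendrocyte-like nuclei had 80.9, 62.5 and 67.0 CPM in sevoflurane and 73.7, 94.8 and 92.8 CPM in oxygen libraries. The groups overlapped, and this was the one combination below 0 among those with an unadjusted p under 0.05 (log2 -0.30, SE 0.14, adjusted p = 0.363, edgeR).

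Dusp8 and Dusp14 had log2 differences above 0 in each class where they passed the filter (11 and 9 classes), between 0.12 and 0.86 for Dusp8 and between 0.09 and 0.64 for Dusp14. Dusp8 in inhibitory-like nuclei had 20.5, 20.6 and 23.5 CPM in sevoflurane and 18.2, 17.5 and 17.2 CPM in oxygen libraries (adjusted p = 0.368, edgeR). Dusp14 there had 8.66, 5.20 and 5.93 CPM in sevoflurane and 4.03, 4.47 and 4.15 CPM in oxygen libraries (log2 0.64, SE 0.27, adjusted p = 0.295, edgeR). Neither gene overlapped between the groups in this class. Dusp16, called in endothelial-like nuclei, lay between -0.40 and 0.39 in its other 11 classes. Of the ERK-selective cytoplasmic genes, Dusp6 was above 0 in 5 and below 0 in 5 classes (-0.43 to 0.21) and Dusp7 above 0 in 5 and below 0 in 5 (-0.42 to 0.48). The 2 tested combinations with every sevoflurane library below every oxygen library were Dusp6 in astrocyte-like nuclei (15.2, 15.5 and 9.42 CPM in sevoflurane and 21.2, 15.7 and 15.9 CPM in oxygen libraries) and Dusp16 in subicular or cortical excitatory-like nuclei (11.7, 12 and 13.3 CPM in sevoflurane and 14, 13.5 and 15 CPM in oxygen libraries). Among the 50 combinations that missed the filter, 5 had every sevoflurane library above every oxygen library and 1 had every sevoflurane library below. The last was Dusp10 in oligodendrocyte precursor-like nuclei, with 3.72, 9.16 and 10.9 CPM in sevoflurane and 13, 14.2 and 17.3 CPM in oxygen libraries, and it was not tested. The share over all genes that missed the filter was not computed, so these counts cannot be set against it. Dusp4 lay between -0.17 and 0.49 in 6 classes and overlapped between the groups in each of them. Dusp2 passed the filter only in dentate granule-like nuclei, with 0.947, 0.736 and 0.806 CPM in sevoflurane and 0.995, 0.599 and 0.889 CPM in oxygen libraries, groups that overlapped.

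**Figure D4:**
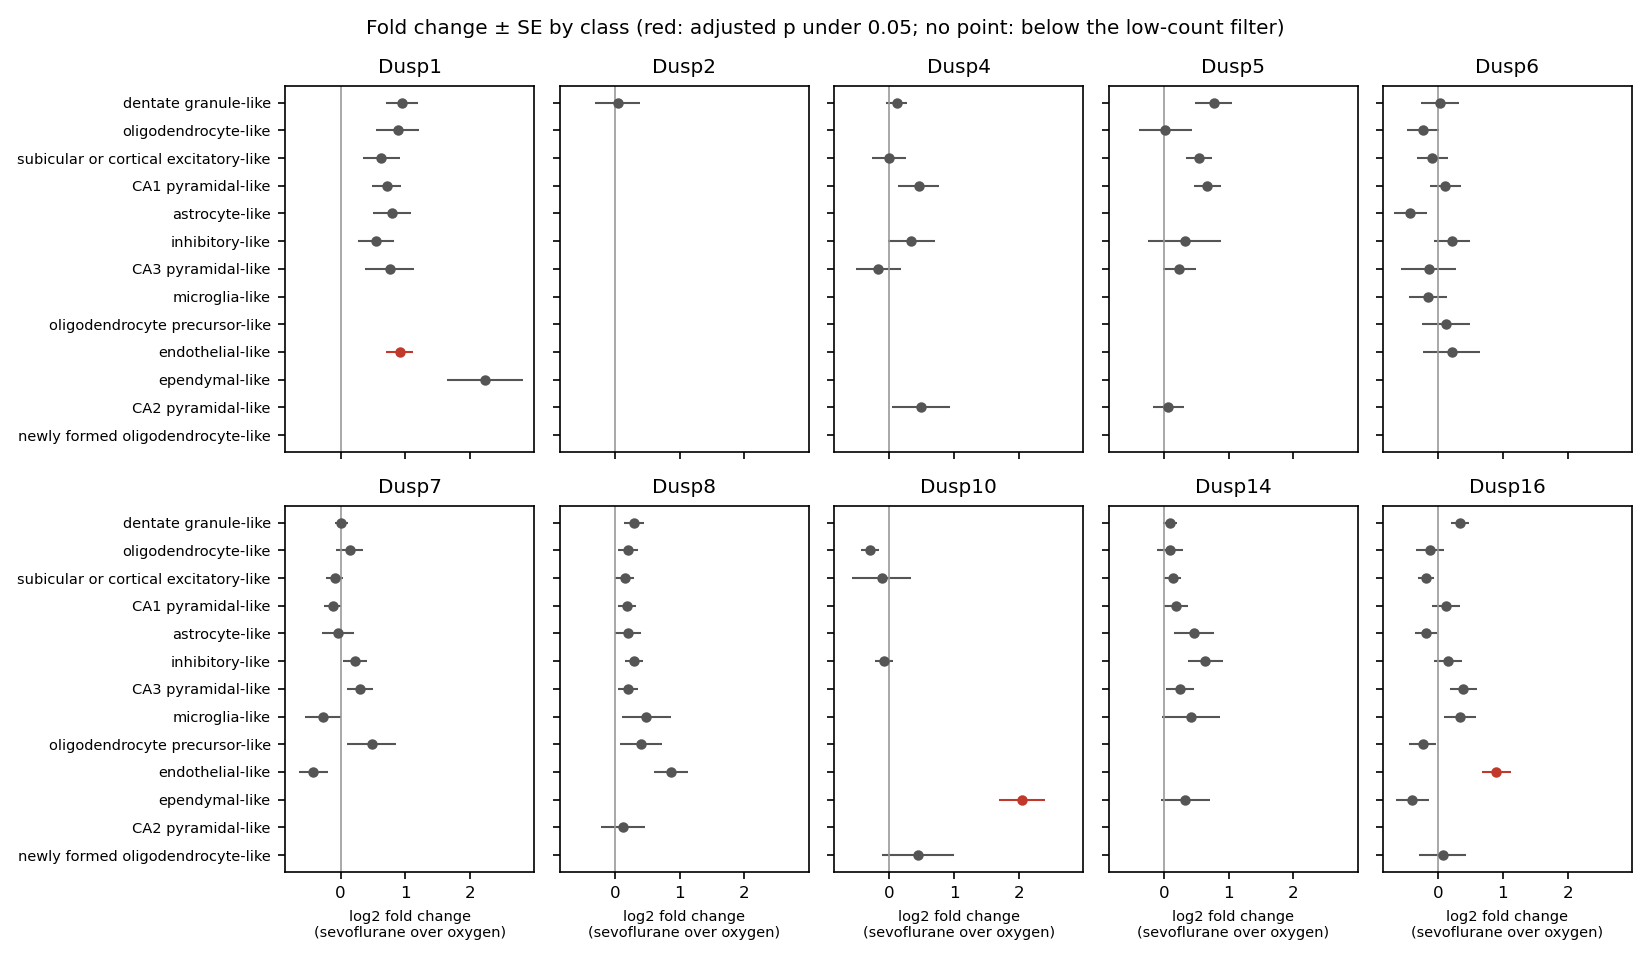
Log2 fold change of sevoflurane over oxygen with its SE for each phosphatase gene (panels) in each class (rows); red marks an adjusted p under 0.05 in edgeR, and rows without a point missed the low-count filter. The 3 red points are Dusp1 (0.91) and Dusp16 (0.90) in endothelial-like and Dusp10 (2.05) in ependymal-like nuclei.

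The response of each class was also set against the mean response of the other tested classes within the same libraries (limma on differences of log2 CPM). Of 80 such differences, 0 passed an adjusted p under 0.05, and 8 had an unadjusted p under 0.05. The difference nearest to the threshold was that of Dusp10 in ependymal-like nuclei (1.97 on the log2 scale, SE 0.33, adjusted p = 0.0657, limma). It was 0.88 (SE 0.25, adjusted p = 0.188, limma) for Dusp16 and 0.68 (SE 0.23, adjusted p = 0.269, limma) for Dusp8 in endothelial-like nuclei. Over all genes, 0.0794% passed in ependymal-like and 0.137% in endothelial-like nuclei. The 3 calls are therefore not shown to be particular to their class.

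The kinases and regulators around these phosphatases were read from lists, which were chosen with earlier results of these data known. In endothelial-like nuclei, 0 of 26 tested ERK cascade, 0 of 15 JNK cascade and 0 of 13 p38 cascade genes were called in edgeR, where 2.79% of all genes were called in either direction, with list medians of -0.04, 0.00 and -0.12 on the log2 scale beside 0.00 for all genes. In ependymal-like nuclei, 0 of 21 ERK cascade, 0 of 13 JNK cascade and 0 of 10 p38 cascade genes were called, where 0.475% of all genes were. With a correction for gene span, 1 JNK cascade gene (Spag9, a JNK scaffold protein) was called higher in endothelial-like nuclei and 1 ERK cascade gene (Rps6ka2, a kinase downstream of ERK) in ependymal-like nuclei. Among the other dual-specificity phosphatases, Dusp3, which acts on ERK and JNK, rose in endothelial-like nuclei (290 ± 21.3 CPM in sevoflurane and 189 ± 14.9 CPM in oxygen libraries, log2 0.63, SE 0.17, adjusted p = 0.0437, edgeR), as 1 of the 7 tested. Dusp11, an RNA phosphatase, fell in dentate granule-like (log2 -0.51, adjusted p = 0.00463), oligodendrocyte-like (log2 -0.66, adjusted p = 0.0154) and subicular or cortical excitatory-like nuclei (log2 -0.44, adjusted p = 0.0183, edgeR).

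Kinase genes were called in neuronal and glial classes. In dentate granule-like nuclei, 1 of 28 ERK and 1 of 17 JNK cascade genes fell, where 3.17% of all genes were called lower. In CA1 pyramidal-like nuclei, 1 of 27 ERK and 2 of 17 JNK cascade genes fell (1.41% of all genes). Of JNK cascade genes, 1 of 17 fell in inhibitory-like (1.20%) and 1 of 16 in oligodendrocyte precursor-like nuclei (1.04%). Of p38 cascade genes, 1 of 18 fell in subicular or cortical excitatory-like nuclei (1.34%) and over all nuclei (1.28%). Mapk10, which encodes the neuronal JNK, fell in CA1 pyramidal-like (951 ± 22.0 CPM in sevoflurane and 1158 ± 45.8 CPM in oxygen libraries), inhibitory-like (701 ± 6.16 CPM in sevoflurane and 875 ± 26.7 CPM in oxygen libraries) and oligodendrocyte precursor-like nuclei (400 ± 3.54 CPM in sevoflurane and 563 ± 11.8 CPM in oxygen libraries), with log2 fold changes of -0.29, -0.32 and -0.49 (edgeR). Map2k4, a kinase that activates JNK, fell in dentate granule-like nuclei (log2 -0.34, adjusted p = 0.0468, edgeR), and Mapkbp1, a JNK-binding protein, fell in CA1 pyramidal-like nuclei (log2 -0.42, adjusted p = 0.0424, edgeR). Rps6ka3, a kinase downstream of ERK, fell in dentate granule-like and CA1 pyramidal-like nuclei (log2 -0.29 and -0.35, edgeR). Map3k5, upstream of JNK and p38, fell in subicular or cortical excitatory-like nuclei (88.7 ± 13.9 CPM in sevoflurane and 123 ± 3.28 CPM in oxygen libraries, log2 -0.48, adjusted p = 0.0434) and over all nuclei (log2 -0.43, adjusted p = 0.0222, edgeR). With the span correction, none of these lower calls remained. Map3k6, of the same kinase family as Map3k5, rose in astrocyte-like nuclei (13.6 ± 6.27 CPM in sevoflurane and 2.92 ± 0.223 CPM in oxygen libraries, log2 2.31, adjusted p = 0.00401, edgeR) and remained called with that correction. It was 1 of 15 p38 cascade genes tested there, where 0.974% of all genes were called higher. Map3k6 passed the low-count filter through its sevoflurane libraries, as its oxygen libraries (2.75 to 3.17 CPM) lay below the cutoff. Its sign was thus partly set by the filter.

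Immediate-early genes are induced by MAP kinases and other signals without new protein synthesis, and some rose in 7 of the 13 classes, including 5 in which no phosphatase of the 10 was called. Of 20 tested immediate-early genes in endothelial-like nuclei, 5 rose and 0 fell, where 1.55% of all genes were called higher, with a median log2 of 0.74 beside 0.00 for all genes. The 4 with the smallest p included Maff, a small Maf transcription factor (123 ± 55.2 CPM in sevoflurane and 20.1 ± 9.02 CPM in oxygen libraries, adjusted p = 0.00114), and Nr4a1, an orphan nuclear receptor (63.9 ± 13.4 CPM in sevoflurane and 19.0 ± 2.13 CPM in oxygen libraries, adjusted p = 0.00278, edgeR). The others were Klf4 (log2 1.56) and Klf6 (log2 0.83), both zinc-finger transcription factors. Maff lay mostly below the cutoff of the low-count filter in oxygen libraries (30.4, 16.7 and 13.3 CPM). It passed through its sevoflurane libraries, so the count in endothelial-like nuclei was partly set by the filter. In ependymal-like nuclei, 3 of 12 rose and 0 fell, where 0.330% of all genes were called higher, with a median log2 of 1.61 beside 0.02 for all genes. These were Nr4a3 (310 ± 133 CPM in sevoflurane and 24.4 ± 10.8 CPM in oxygen libraries, log2 3.64), Egr1 (log2 1.75) and Junb (log2 1.77), each encoding a transcription factor. Junb passed the low-count filter through its sevoflurane libraries, as its oxygen libraries (14.5 to 18.1 CPM) lay below the cutoff. The count and median in ependymal-like nuclei were thus partly set by the filter. In CA1 pyramidal-like nuclei 3 of 25 rose and 0 fell, where 0.483% of all genes were called higher. These were Nr4a2 (log2 1.08), Fos (log2 1.5) and Nr4a3 (log2 0.70), with a list median log2 of 0.56 beside 0.01 for all genes. With the gene span correction, Nr4a3 lost its call there and the other named genes kept theirs. Another 1 gene rose in each of 4 other classes and none fell. These were Sik1, a salt-inducible kinase, in astrocyte-like (log2 2.66, adjusted p = 0.000400) and dentate granule-like nuclei (log2 1.24, adjusted p = 0.0296), Per1, a clock gene, in inhibitory-like nuclei (log2 0.79, adjusted p = 0.0132) and Btg2 in CA3 pyramidal-like nuclei (log2 1.45, adjusted p = 0.0229, edgeR). The shares of all genes called higher in these classes were 0.974%, 1.45%, 0.353% and 0.180%, in the order named. In astrocyte-like nuclei Sik1 passed the low-count filter through its sevoflurane libraries, as its oxygen libraries (1.97 to 3.29 CPM) lay below the cutoff. Its sign there was thus partly set by the filter.

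Of 13 tested ERK transcription targets in endothelial-like nuclei, 5 rose and 0 fell, where 1.55% of all genes were called higher. This list was chosen with earlier results of these data known, so the count is no independent readout of ERK signalling. The leading genes were Tnfrsf12a (152 ± 39.1 CPM in sevoflurane and 23.5 ± 17.7 CPM in oxygen libraries) and Plaur, the urokinase receptor (103 ± 43.6 CPM in sevoflurane and 15.6 ± 5.73 CPM in oxygen libraries). Each had an adjusted p of 0.000638 (edgeR). In oxygen libraries Tnfrsf12a (15.2, 43.8 and 11.4 CPM) and Plaur (16.6, 20.9 and 9.51 CPM) lay mostly below the cutoff of the low-count filter. Both passed it through their sevoflurane libraries, so the count of ERK targets was partly set by the filter. In ependymal-like nuclei 0 of 6 were called. Elsewhere Ccn1, a matricellular protein, rose (log2 1.73) and the ETS factor Etv5 fell (log2 -0.73) in astrocyte-like nuclei. The ETS factor Etv1 fell (log2 -0.40) in dentate granule-like nuclei. With the span correction the Etv1 call was lost, and those of Ccn1 and Etv5 remained. Of 14 tested glucocorticoid-responsive genes in endothelial-like nuclei, 4 rose and 0 fell, and Dusp1 itself is 1 of them. The other three were Mt2 (log2 1.36), Sgk1 (log2 1.16) and Mt1 (log2 1.08). In ependymal-like nuclei 0 of 10 were called. Members of this list also rose in 6 other classes. Among them were 3 of 16 in astrocyte-like nuclei (Pdk4, log2 1.38, Arrdc2, log2 1.58, and Ddit4, log2 1.11), where 0.974% of all genes were called higher. Among the remaining classes, 1 of 16 rose in dentate granule-like (1.45% of all genes called higher) and 2 of 15 in oligodendrocyte-like nuclei (0.159%). It was 1 of 15 in CA1 pyramidal-like (0.483%), 1 of 14 in inhibitory-like (0.353%) and 1 of 13 in microglia-like nuclei (0.119%). Under the span correction Ddit4 in microglia-like, Mt1 in oligodendrocyte-like and Mt2 in dentate granule-like nuclei lost their calls. Mt1 was called in dentate granule-like nuclei instead. Zbtb16 fell in dentate granule-like nuclei (log2 -0.42), a call that was lost with the span correction.

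Among the other inhibitors of Ras and ERK signalling, members fell in 6 classes and rose in 2. In dentate granule-like nuclei 2 of 22 tested fell, where 3.17% of all genes were called lower. In CA1 pyramidal-like nuclei 2 of 21 fell (1.41%) and 1 rose (0.483% called higher), and in astrocyte-like nuclei 2 of 20 fell (1.28%). It was 1 of 22 in subicular or cortical excitatory-like (1.34%), 1 of 21 in inhibitory-like (1.20%) and 1 of 17 in CA2 pyramidal-like nuclei (0.462%). In ependymal-like nuclei 1 of 13 rose, Lrig1 (139 ± 18.8 CPM in sevoflurane and 60.0 ± 2.80 CPM in oxygen libraries, log2 1.20, adjusted p = 0.0250, edgeR), a receptor that restrains growth factor signalling, and 0 of 16 were called in endothelial-like nuclei. Of all genes, 0.330% were called higher in ependymal-like nuclei and 2.79% in either direction in endothelial-like nuclei. Errfi1, a feedback inhibitor of the EGF receptor, rose in CA1 pyramidal-like nuclei (50.7 ± 3.1 CPM in sevoflurane and 32.5 ± 0.761 CPM in oxygen libraries, log2 0.64, adjusted p = 0.00617, edgeR). Nf1, the Ras GTPase-activating protein neurofibromin, fell in subicular or cortical excitatory-like (log2 -0.51), astrocyte-like (log2 -0.50) and CA1 pyramidal-like nuclei (log2 -0.42). Ptprr, a tyrosine phosphatase of ERK, fell in CA2 pyramidal-like (log2 -0.66), CA1 pyramidal-like (log2 -0.52) and inhibitory-like nuclei (log2 -0.43). The Ras GTPase-activating proteins Rasa1 (log2 -0.48) and Rasal2 (log2 -0.38) fell in dentate granule-like nuclei, and Spry2, a Sprouty protein that restrains receptor signalling to ERK, fell in astrocyte-like nuclei (log2 -0.69). With the span correction, the lower calls of Rasa1, of Spry2, of Nf1 in subicular or cortical excitatory-like nuclei and of Ptprr in CA2 pyramidal-like nuclei remained, and the others did not.

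From the list of RNA quality and dissociation genes, 0 of 7 in endothelial-like and 0 of 6 in ependymal-like nuclei were called. The median log2 of this list was 0.40 in endothelial-like nuclei, beside 0.00 for all genes, 0.26 for the ERK targets and 0.36 for the glucocorticoid-responsive genes there, and 0.11 in ependymal-like nuclei, beside 0.02 for all genes. Its part in the calls was not tested. The list shares genes with the immediate-early list.

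The genes lie on the mm10 build at positions taken from GENCODE M21, introns included. The RefSeq starts used above for Dusp1, Dusp8 and Dusp10 lie within their GENCODE spans. Dusp1 spans chr17:26505590-26562128, Dusp16 chr6:134715468-134792625 and Dusp10 chr1:184013302-184075636. The annotation places Ergic1 on the opposite strand within the span of Dusp1, the antisense transcript Gm36328 within that of Dusp16 and 1700056E22Rik on the opposite strand within that of Dusp10. On the strand of Dusp1 itself, AC122252.1 and AC122252.4 also overlap its span. Whether the counting used strand and introns is not given in the sources used here, so reads of overlapping genes may not be told apart.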

How the data were processed

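Nuclei from frozen hippocampi were measured in 6 libraries of 3' transcript ends (10x Genomics). The genome build was mm10 and the tools were Cell Ranger 7.1.0 and fastp, per the submitters' processing notes. The deposited values are raw UMI counts per gene and barcode, per the file headers. The sources used here do not give strand or intron settings.

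From these counts, barcodes were kept from 500 UMIs and 300 genes upward if mitochondrial UMIs were no more than 5%. A Scrublet threshold of 0.322, common to all libraries, removed 1235 doublets. Nuclei were clustered with scanpy 1.11.5 and igraph 0.11.9 (3000 variable genes without the members and immediate-early genes, 40 components, 20 neighbours, resolution 1.0, no integration). Clusters were named from 23 marker lists when at least 3 markers reached 10 CPM and 2 times the other nuclei; 30 of 48 clusters were named and 18 were not.

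Counts were summed per library and class and tested with edgeR 4.0.16 (R 4.3.3; TMM, filterByExpr, robust quasi-likelihood, Benjamini-Hochberg). CPM values use normalised library sizes. Differences between classes used limma 3.58.1. DESeq2 1.42.0, no filter, a stricter nuclei filter, clustering with the members, a gene span correction, a replicate block, equal class shares and leaving out each library were alternatives. The 2 dentate granule-like clusters alone, and all nuclei without choroid plexus-like nuclei, were added after seeing the data. The edgeR and limma steps were tested on simulated data. Named genes are the 10 members in each class, up to 4 called genes per list and class with the smallest p, and the 3 genes most like each member. The members and lists were chosen with earlier results of these data known. Promoters and their coordinates are from RefSeq (GRCm38.p6); 9 of 10 members matched.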

Additional observations from a re-analysis of the deposited data

Results flagged for a closer look

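These values come from classes too small to test, and each was picked because its lowest sevoflurane library lay above its highest oxygen library, with at least 10 counts in all. In pericyte-like nuclei Dusp16 was at 114 CPM or more in the sevoflurane libraries and at most 79.6 CPM in the oxygen libraries, on 42 counts, where 6.32% of 8253 genes were ordered this way. In hilar mossy-like nuclei Dusp1 was at 4.80 CPM or more in sevoflurane and at most 2.46 CPM in oxygen libraries, on 19 and 1 counts in the sevoflurane and oxygen groups (6.52% of 12183 genes). In vascular leptomeningeal fibroblast-like nuclei Dusp7 was at 23.5 CPM or more in sevoflurane and at most 22.0 CPM in oxygen libraries, and Dusp8 at 34.7 CPM or more in sevoflurane and at most 19.4 CPM in oxygen libraries (4.90% of 12676 genes). The libraries held 13 to 57 pericyte-like, 17 to 37 hilar mossy-like and 17 to 102 vascular leptomeningeal fibroblast-like nuclei, and none of these differences was tested.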

How the results depend on the processing

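The count of member and class combinations called higher was 3, and it was 6 with no filter on low counts, where Dusp1 in dentate granule-like and ependymal-like nuclei and Dusp5 in CA1 pyramidal-like nuclei were added. It was 0 to 5 when 1 library was left out, 0 without oxygen replicate 1, 1 without sevoflurane replicate 1 or 2, and 5 without sevoflurane replicate 3. The cause was not tested. No combination was called lower under any alternative run. Over all nuclei 0 members were called, and 1 (Dusp1) with DESeq2. Of the 20 differences with an unadjusted p under 0.05, over 261 alternative values, none changed sign, 13 lost a call and 10 gained one. The unthinned difference for Dusp10 in ependymal-like nuclei was 21.6 percentage points. No difference between classes was called under any alternative run.

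Replicate numbers did not pair the samples, with correlations of deviations between same-numbered libraries of -0.212 to 0.0722 over the sets tested. With the replicate as a block, 4 combinations were called higher and 0 lower, Dusp1 in ependymal-like nuclei being the added one (log2 2.11, adjusted p = 0.0386, edgeR), and 0 differences between classes. The smallest classes limit what could be seen, since endothelial-like and ependymal-like nuclei numbered 61 to 189 and 71 to 163 per library, and 50 of 130 combinations had too few counts to test.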
